A study of Mus musculus with 18 samples.

Results

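The Wnt pathway genes of mouse bone marrow mesenchymal stem cells (MSCs) were followed in young MSCs, old MSCs and rejuvenated old MSCs. The set was defined by gene name. It held the Wnt ligands (Wnt followed by a number), the frizzled receptors (Fzd), the Sfrp and Dkk antagonists and the R-spondins (Rspo), plus 25 listed genes that act with them, from Porcn to the TCF/LEF factors. The rule found 66 of the 27179 genes in the table. Of these, 48 had a mean of at least 10 normalised counts over the 18 libraries and were tested, among 14353 genes that passed the same filter.

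Wnt proteins are secreted, lipid-modified ligands that bind frizzled receptors together with a coreceptor. In the canonical branch this stabilises beta-catenin, which enters the nucleus and acts with TCF/LEF factors on target genes, several of which feed back on the pathway. In the non-canonical branches, ligands such as Wnt5a act through Ror receptors on cell shape and movement. In bone marrow stroma the pathway is known for favouring osteoblast over adipocyte fate, and its strength is set largely by secreted antagonists (Sfrp, Wif1 and Dkk proteins) and by R-spondins, which protect frizzled receptors from degradation.

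All MSCs came from the marrow of male C57BL6 mice, with young donors of 6 weeks and old donors of 18 to 24 months. Cells had been expanded over passages 2 to 5 before use, and 100000 cells were cultured for 7 days. Young MSCs and old MSCs were each cultured apart, while rejuvenated old MSCs were old MSCs that shared medium with young MSCs across a membrane with 0.4 µm pores, which passes soluble factors and holds back cells. Each group had 6 libraries. No library of old MSCs grown opposite old MSCs was used here, so the presence of a second cell layer and the age of its cells cannot be told apart. The labels call the replicates biological without saying whether they came from separate animals, so p-values measure the spread between these cultures, which may be technical.

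Libraries held between 22936251 and 29559194 reads in genes, and the deepest exceeded the shallowest by 1.29 times. All 13 stromal marker genes examined, Col1a1 and Pdgfra among them, passed the filter on low values, and 5 were higher and 8 lower in young than in old MSCs. Thy1 lay between 0 and 3.23 normalised counts in old MSCs against 175 to 227 in young MSCs, and Nt5e between 12.9 and 23.1 against 254 to 326. Eng, Cxcl12 and Lepr went the other way, Eng from 147 to 175 counts in young MSCs against 7008 to 7681 in old MSCs. Markers of other cells also differed with donor age, as most genes did. Of all genes tested, 41.6% were called higher and 44.1% lower in young than in old MSCs. In rejuvenated old against old MSCs these shares were 21% and 20.6%. The summed level of 16 macrophage markers was 938 to 1053 in young MSCs, 17828 to 22179 in old MSCs and 17769 to 21557 in rejuvenated old MSCs. All 16 were lower in young than in old MSCs, and the defining markers Ptprc and Adgre1 were at 0 in every young library. In rejuvenated old against old MSCs, 1 of the 16 was higher and 1 lower. All 10 osteoblast markers and all 7 adipocyte markers tested were also lower in young than in old MSCs, while in rejuvenated old against old MSCs 7 osteoblast markers were lower and 1 higher, and 4 adipocyte markers were higher and 2 lower. All 5 smooth muscle markers tested were lower in young than in old MSCs and 2 were higher after co-culture, with sums of 45840 to 48641 in young MSCs, 117130 to 129567 in old MSCs and 121345 to 140015 after co-culture. Of 3 endothelial markers tested, 2 were higher and 1 lower in young MSCs, and no lymphoid marker passed the filter. In bulk RNA, fewer cells of a type and less RNA per cell cannot be told apart, and the part of these cells in the results below was not tested. A pair of libraries stood apart. In rejuvenated old replicate 1, the 45 genes read in young MSCs and at the detection floor in old MSCs summed to 1.96% of their young level, against 0.0876% to 0.168% in the other 5 rejuvenated old libraries and 0.0678% to 0.0987% in old MSCs. In young replicate 6, the 103 genes at the floor in young MSCs and read in old MSCs summed to 0.141% of their old level, against 0.0548% to 0.0903% in the other young libraries. Results that rest on either library are given with and without it.

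Nearly every Wnt gene differed between young and old MSCs. Of the 48 genes, 14 were higher in young MSCs and 32 were lower (limma with Benjamini-Hochberg adjustment over all genes tested, called at an adjusted p under 0.05). Over all 14353 genes, 41.6% were called higher and 44.1% lower. The libraries of the groups did not overlap for 40 of the 48, against 73.9% of all genes. The median log2 fold change (young minus old) was -0.63 over the Wnt genes and -0.02 over all genes, and the median absolute value was 1.03 against 0.60. A change of at least 2 on the log2 scale in either direction was seen in 18 Wnt genes (37.5%) and in 2211 of all genes (15.4%).

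Fewer of these genes differed after co-culture, and by less. Between rejuvenated old and old MSCs, 10 Wnt genes were higher and 14 lower, beside 21% and 20.6% of all genes. Groups did not overlap for 16 of the 48, against 22% of all genes. The median absolute log2 fold change was 0.29 over the Wnt genes and 0.15 over all genes, and none of the 48 reached 2, against 33 of all genes (0.230%). Between rejuvenated old and young MSCs, 28 were higher in the rejuvenated cells and 14 lower, beside 44.1% and 41.5% of all genes, and 35 did not overlap, against 70.5%. The comparisons share libraries with one another (the old libraries serve both of the first 2), so their values are set side by side and are not independent of each other.

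**Figure D1:**
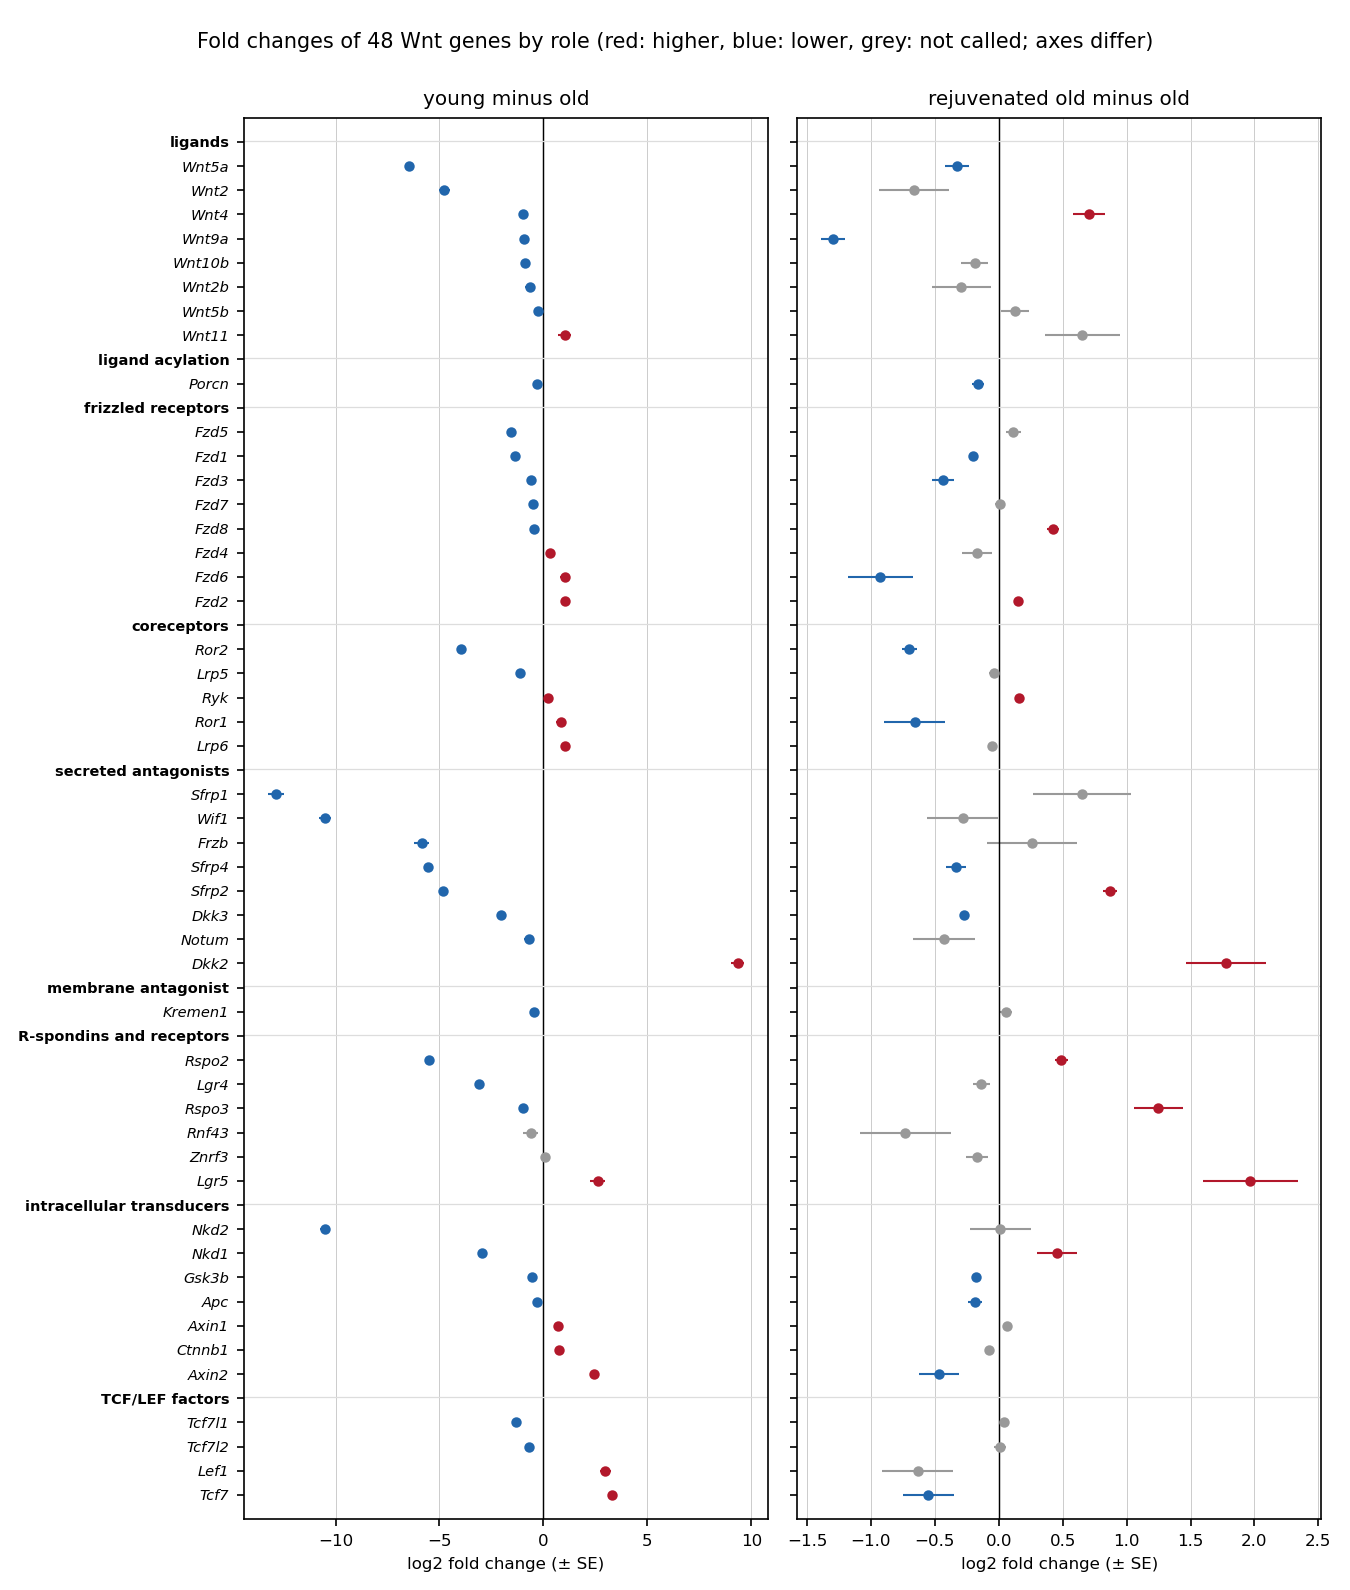
Log2 fold change with its standard error for the 48 Wnt genes, ordered by role, in young minus old MSCs (left) and rejuvenated old minus old MSCs (right); each point is a gene, red and blue mark genes called higher and lower, grey marks genes not called, and the horizontal axes differ. The left panel runs from -12.88 (Sfrp1) to 9.34 (Dkk2), while the right panel runs from -1.29 (Wnt9a) to 1.97 (Lgr5).

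The secreted antagonists held the largest differences with age. Of the 8 tested, 7 were lower in young than in old MSCs and Dkk2 alone was higher, beside 44.1% and 41.6% of all genes. Their median log2 fold change was -5.20. Sfrp1, a secreted frizzled-related protein that binds Wnt ligands, had 2.18, 4.16 and 46.3 normalised counts in young MSCs (lowest, median and highest of 6), 55480, 56483 and 57134 in old MSCs, and 83770, 87900 and 95079 in rejuvenated old MSCs. The 3 groups did not overlap. Young MSCs were thus almost without Sfrp1 RNA, and the highest young value came from replicate 6, which stood apart. The log2 fold change was -12.88 ± 0.38 (SE) in young against old MSCs (limma, adjusted p = 5.1e-19), and -13.41 without replicate 6. Ranked by level per kb of exon among 13292 genes with a known length, Sfrp1 stood at place 12473 in young MSCs, 61 in old MSCs and 36 in rejuvenated old MSCs.

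Sfrp1 was higher in every rejuvenated old library than in any old one, and whether this was called depended on the fit. The mean was 56377 ± 761 (SD, n = 6) in old and 88621 ± 4303 in rejuvenated old MSCs, 1.57 times the old mean. In the fit of all 18 libraries, the log2 fold change of 0.65 ± 0.38 was not called (limma, adjusted p = 0.19). That fit shares 1 estimate of the spread between the groups, and in young MSCs the few reads of Sfrp1 spanned 2.18 to 46.3 counts. Without young replicate 6 the same 0.65 had an adjusted p of 0.00057 (limma). With the old and rejuvenated old libraries fitted alone the adjusted p was 1.4e-09 (limma), and with edgeR on the reads of all 18 it was 2e-05. DESeq2 gave Sfrp1 no p-value. For Wif1, another secreted Wnt-binding protein, the call also depended on the fit. It had 1902, 2149 and 2322 counts in old and 1581, 1789 and 1945 in rejuvenated old MSCs, so the groups overlapped narrowly. Its log2 fold change of -0.28 ± 0.28 was not called (limma, adjusted p = 0.44), but it was with those groups fitted alone (limma, adjusted p = 0.00037) and with edgeR (adjusted p = 0.00074). Without young replicate 6 it was not called (limma, adjusted p = 0.087). In young MSCs 4 libraries held no Wif1 read and the highest, replicate 6, held 4.12 counts, a log2 fold change of -10.50 ± 0.28 against old MSCs (limma, adjusted p = 4.3e-20).

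Sfrp2, a close relative of Sfrp1, had 476, 561 and 646 counts in young MSCs, 15474, 15792 and 17076 in old MSCs and 28106, 29064 and 31256 in rejuvenated old MSCs. The groups were fully apart, and Sfrp2 rose on co-culture, farther above its young level, by 0.87 ± 0.06 on the log2 scale (limma, adjusted p = 2.8e-11). Sfrp4 went the other way on co-culture, from a mean of 6713 ± 342 in old to 5336 ± 511 in rejuvenated old MSCs, and lay at 142 ± 21.0 in young MSCs (SD, n = 6 each). Frzb, also a frizzled-related antagonist, lay at 216 ± 19.2 in old and 260 ± 26.3 in rejuvenated old MSCs. It lay at 3.81 ± 3.25 in young MSCs, and its difference between old and rejuvenated old MSCs was not called (limma, adjusted p = 0.59), though it was with those groups fitted alone (limma, adjusted p = 0.013).

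Dkk2 ran against the rest of its class. It is a Dickkopf protein that binds the coreceptors Lrp5 and Lrp6. Dkk2 had 6099, 6707 and 7237 counts in young MSCs, 3.23, 11.1 and 17.1 in old and 21.9, 30.1 and 94.7 in rejuvenated old MSCs. The young mean was 626 times the old mean. Rejuvenated old MSCs did not overlap old MSCs, at 1.78 ± 0.31 on the log2 scale above them (limma, adjusted p = 8.8e-05), yet their mean was 0.589% of the young mean. The highest value belonged to replicate 1, which also carried 1.96% of the young level of the 45 genes described above. Without it the other 5 lay between 21.9 and 31.7, and the log2 fold change was 1.49 (limma, adjusted p = 9e-05). Dkk3, a divergent Dickkopf relative, was lower in young (3508 ± 105) than in old MSCs (14519 ± 318) and fell to 12048 ± 549 in rejuvenated old MSCs (SD, n = 6 each). Notum, an extracellular enzyme that removes the lipid from Wnt proteins, stayed between 5.44 and 24.1 counts in all 18 libraries, and its call between young and old MSCs was modest (log2 fold change -0.71 ± 0.24, limma, adjusted p = 0.0092). Kremen1, a membrane partner of Dickkopf proteins, was lower in young than in old MSCs by a log2 fold change of -0.46 ± 0.04 and was not called on co-culture. The antagonists Dkk1, Dkk4 and Sfrp5 were under the filter, with at most 5.77, 0 and 11.3 counts.

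Summed per kb of exon, the 8 secreted antagonists reached 3149 ± 117 normalised counts in young MSCs, 27258 ± 428 in old MSCs and 39646 ± 1366 in rejuvenated old MSCs (SD, n = 6 each). The makeup of that level changed with the group. Dkk2 gave 57.2% of it and Dkk3 33.2% in young MSCs, while Sfrp1 gave 47.3% and Sfrp2 27.4% in old MSCs, and 51.1% and 34.5% in rejuvenated old MSCs.

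**Figure D2:**
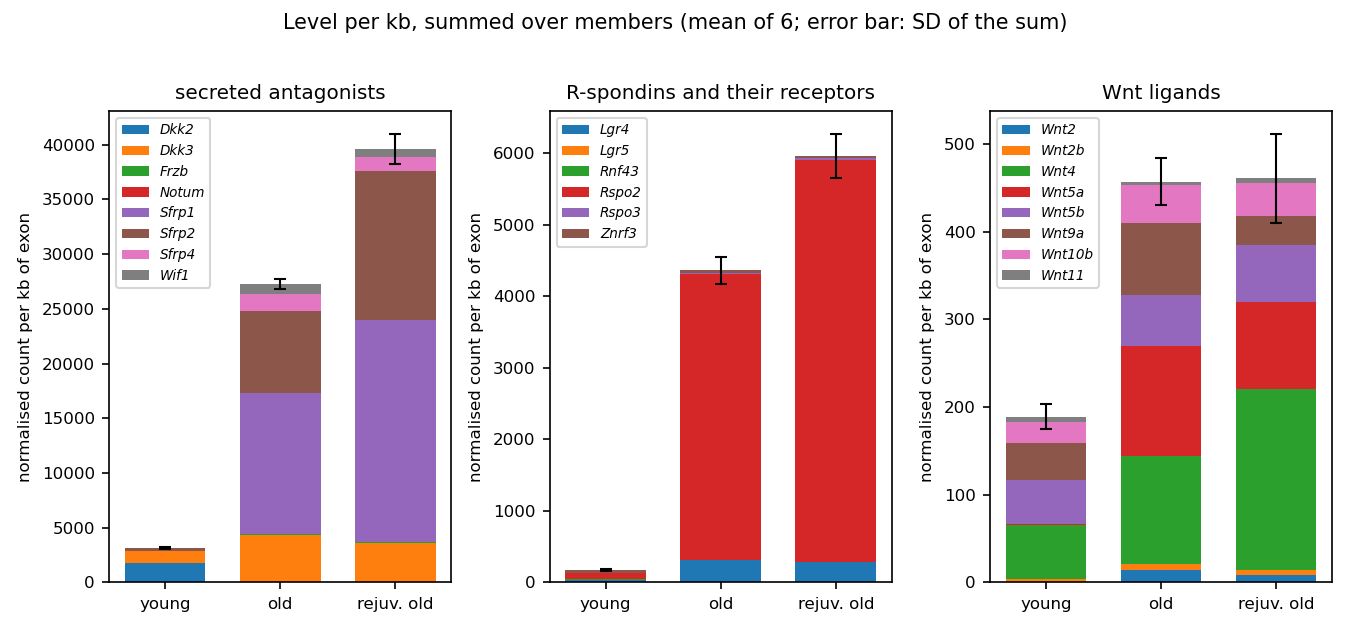
Normalised counts per kb of exon in each group, stacked by gene and summed over the tested secreted antagonists, the R-spondins with their receptors, and the Wnt ligands; bars are means of 6 libraries, error bars the SD of the sum, and the vertical scales differ. The antagonist bar grows from 3149 in young to 39646 in rejuvenated old MSCs, and Rspo2 fills 94.2% of the rejuvenated old bar in the middle panel.

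Among the R-spondins, the agonists of the system, Rspo2 was the abundant one. Rspo2 had 387, 461 and 510 counts in young MSCs, 19404, 20183 and 21794 in old MSCs and 26887, 28732 and 31094 in rejuvenated old MSCs. The groups did not overlap, with log2 fold changes of -5.48 ± 0.05 in young against old and 0.49 ± 0.05 in rejuvenated old against old MSCs (limma, adjusted p = 7.2e-28 and 9.7e-08). Rspo2 alone made up 91.8% of the summed level per kb of the R-spondins and their receptors in old MSCs. Rspo3 was far scarcer, with medians of 16.7, 32.7 and 78.3 counts in young, old and rejuvenated old MSCs. It rose on co-culture by 1.25 ± 0.19 on the log2 scale (limma, adjusted p = 2.1e-05) with the groups fully apart, from 27.9 to 54.2 in old and 58.7 to 116 in rejuvenated old MSCs. Rspo1 and Rspo4 were under the filter, with at most 3.09 and 3.78 counts.

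The R-spondin receptors Lgr4 and Lgr5 differed in opposite directions with age. Lgr4 lay at 216 ± 26.3 in young MSCs, 1823 ± 120 in old MSCs and 1657 ± 95.5 in rejuvenated old MSCs (SD, n = 6 each), and the last 2 overlapped. Their difference was not called (limma, adjusted p = 0.095), and was with edgeR, DESeq2, those groups fitted alone or young replicate 1 left out, at a log2 fold change of -0.14 in each. Lgr5, itself a Wnt target known as a stem cell marker in gut, was scarce. It had 24.5, 42.3 and 54.4 counts in young MSCs, 1.08, 7.97 and 15.4 in old MSCs and 22.3, 25.3 and 29.5 in rejuvenated old MSCs. Rejuvenated old MSCs lay above every old library and overlapped young MSCs, with a log2 fold change of 1.97 ± 0.37 over old (limma, adjusted p = 0.00018) and -0.64 ± 0.37 against young MSCs (limma, adjusted p = 0.11). On this log2 scale it was the largest change of the 48 genes on co-culture, while by the ratio of means Dkk2 (3.68) was ahead of Lgr5 (3.39). With a pseudocount of 10 in place of 1, Lgr5 was at 1.08, Dkk2 at 1.17 and Wnt9a at -1.23. The difference of Lgr5 between rejuvenated old and young MSCs was called with edgeR and DESeq2 (log2 fold changes -0.69 and -0.70) and without old replicate 1. It was also called with those groups fitted alone (limma, adjusted p = 0.0035), with a pseudocount of 10 and with chromosome medians removed. The ubiquitin ligases Znrf3 and Rnf43, which clear frizzled receptors and are opposed by R-spondins, were not called in young against old or in rejuvenated old against old MSCs. The exceptions were Rnf43 in young against old MSCs with edgeR (log2 fold change -0.69), with those groups fitted alone or without rejuvenated old replicate 4 (-0.62 in both), and Znrf3 on co-culture without rejuvenated old replicate 1 (-0.22). Znrf3 lay between 194 and 309 counts in all 18 libraries, and was lower in rejuvenated old than in young MSCs by a log2 fold change of -0.23 ± 0.09 (limma, adjusted p = 0.015).

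Of the 19 Wnt ligand genes, 8 passed the filter. Wnt1, Wnt3, Wnt3a, Wnt6, Wnt7a, Wnt7b, Wnt8a, Wnt8b, Wnt9b, Wnt10a and Wnt16 did not, and Wnt16 was the highest of these with up to 13.4 counts in a library. At this depth the classical canonical ligands Wnt1 and Wnt3a had at most 1.03 and 2.15 counts, while their chromosomal neighbours were read. Wnt10b, whose gene lies 11.7 kb from Wnt1 on chromosome 15, had 64.7 to 172 counts over the 18 libraries, and Wnt9a, 16.1 kb from Wnt3a on chromosome 11, had 101 to 302. In young against old MSCs, 7 ligands were lower and Wnt11 was higher, beside 44.1% and 41.6% of all genes. In rejuvenated old against old MSCs, Wnt4 was higher, Wnt5a and Wnt9a were lower and the other 5 were not called. Of all genes, 21% were higher and 20.6% lower in that comparison.

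Wnt5a, the main non-canonical ligand, had 7.82, 9.86 and 13.1 counts in young MSCs, 900, 981 and 1030 in old MSCs and 715, 779 and 855 in rejuvenated old MSCs. The 3 groups were apart, and Wnt5a fell on co-culture by 0.33 ± 0.10 on the log2 scale (limma, adjusted p = 0.0098), a small step beside its -6.48 ± 0.10 in young against old MSCs. Ror2, the receptor through which Wnt5a is known to act, moved in the same directions. It had 73.9, 82.2 and 93.6 counts in young MSCs, 1232, 1307 and 1415 in old MSCs and 722, 815 and 873 in rejuvenated old MSCs, with a log2 fold change on co-culture of -0.70 ± 0.06 (limma, adjusted p = 3.9e-09). Its relative Ror1 was scarce, higher in young (59.5 ± 9.10) than in old MSCs (33.5 ± 6.65), and its lower level of 22.3 ± 9.84 in rejuvenated old MSCs was near the threshold (limma, adjusted p = 0.031). That call was lost without old replicate 1, 2, 5 or 6 or rejuvenated old replicate 4 or 5, at log2 fold changes between -0.64 and -0.45. It was also lost with the old and rejuvenated old libraries fitted alone and with no filter on low values (limma, adjusted p = 0.055 in both).

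Wnt4 and Wnt9a changed in opposite directions on co-culture. Wnt4 had 214, 256 and 304 counts in young MSCs, 466, 519 and 563 in old MSCs and 648, 834 and 1169 in rejuvenated old MSCs. The groups did not overlap, and Wnt4 rose on co-culture by 0.71 ± 0.13 on the log2 scale (limma, adjusted p = 9.7e-05). Wnt9a had 111, 146 and 166 counts in young MSCs, 239, 284 and 302 in old MSCs and 101, 111 and 127 in rejuvenated old MSCs. After co-culture it lay below every old library (log2 fold change -1.29 ± 0.09, limma, adjusted p = 2.9e-10), and its mean was below that of young MSCs too (log2 fold change -0.35 ± 0.09, adjusted p = 0.0017), though these groups overlapped. Wnt9a was the Wnt gene that fell most on co-culture on this scale.

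Wnt2 had 2 reads in all young libraries together and 196 in the old ones. Scaled for depth, the ratio of these pooled reads was 93.2 (95% counting interval 25.5 to 775). Between 0 and 2.18 counts in young and 24.8 to 40.1 in old MSCs, the groups did not overlap. On co-culture the log2 fold change of Wnt2, -0.67 ± 0.27, was not called (limma, adjusted p = 0.056). It was called with edgeR and DESeq2 (-0.70 in both) and without young replicate 1. The call was also made with the old and rejuvenated old libraries fitted alone (limma, adjusted p = 0.0041). A pseudocount of 10 and eBayes without trend gave it too. Wnt10b and Wnt2b were lower in young than in old MSCs, by log2 fold changes of -0.91 ± 0.11 and -0.65 ± 0.23, and neither was called on co-culture. The lower level of Wnt5b in young MSCs (log2 fold change -0.24 ± 0.11, limma, adjusted p = 0.049) lay at the threshold and was lost in most alternative fits. Summed per kb, the 8 ligands reached 189 ± 14.0 counts in young MSCs, 457 ± 26.6 in old MSCs and 461 ± 51.0 in rejuvenated old MSCs (SD, n = 6 each), levels well under those of the antagonists. Wnt4 held the largest share in young (32.6%) and in rejuvenated old MSCs (44.9%), and Wnt5a in old MSCs (27.4%). Porcn, the enzyme that adds the lipid to Wnt proteins, was expressed throughout at 1139 to 1704 counts and differed little, by log2 fold changes of -0.32 ± 0.05 in young and -0.16 ± 0.05 in rejuvenated old against old MSCs.

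**Figure D3:**
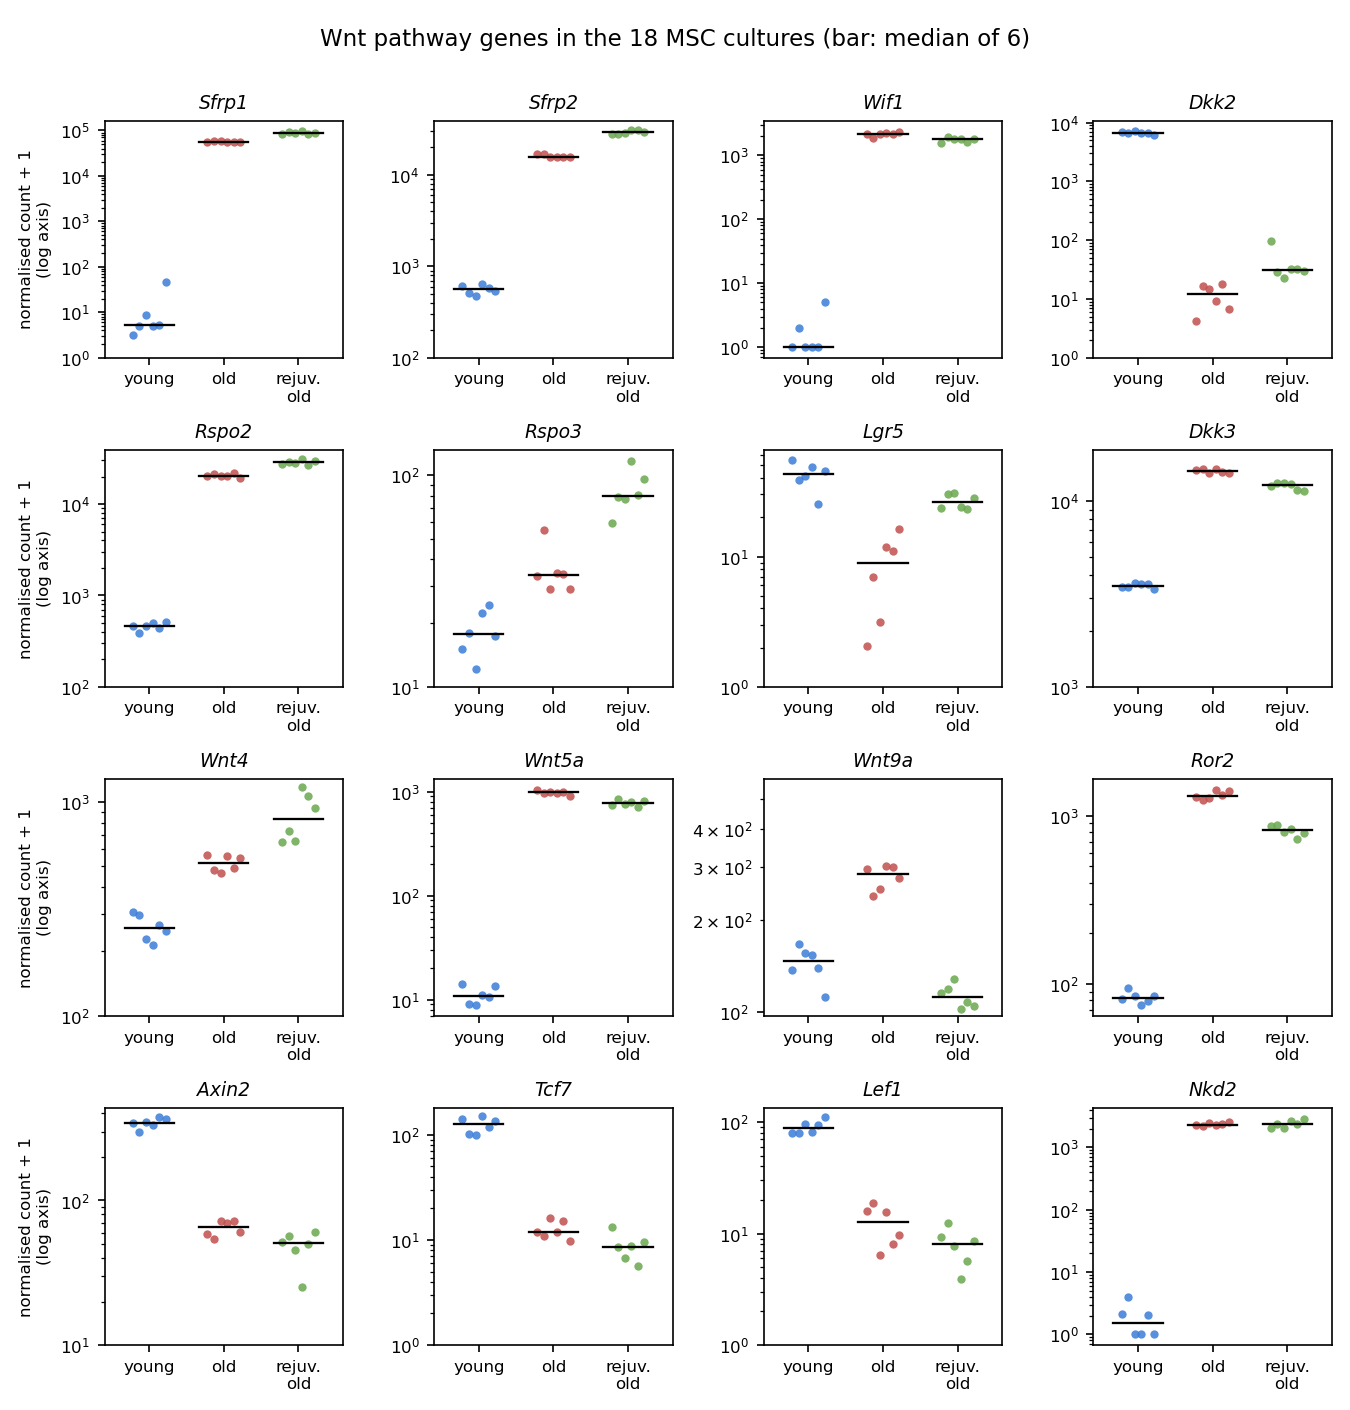
Normalised counts plus 1 on a log axis for 16 Wnt genes, with a point for each of the 18 libraries and a bar at the median of each group of 6. Sfrp1, Wif1 and Nkd2 sit near the bottom of the axis in young MSCs, Dkk2 does so in old MSCs, and Lgr5 and Rspo3 in rejuvenated old MSCs lie above all 6 old libraries.

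Frizzled receptors and coreceptors were expressed in every group. Of the 8 frizzled genes tested, 3 were higher and 5 lower in young than in old MSCs, beside 41.6% and 44.1% of all genes. The summed level per kb was 2017 ± 50.6 in young MSCs, 2554 ± 54.2 in old MSCs and 2560 ± 130 in rejuvenated old MSCs (SD, n = 6 each). The leading receptor differed. Fzd2 gave 47.1% of the summed level per kb in young MSCs, and Fzd1 gave 41.9% in old and 36.4% in rejuvenated old MSCs. Fzd2 was higher in young (3479 ± 79.9) than in old MSCs (1696 ± 86.1) and was raised by 0.15 ± 0.03 on the log2 scale in rejuvenated old MSCs (limma, adjusted p = 0.0007). Fzd1 was lower in young (1712 ± 45.1) than in old MSCs (4487 ± 109) and fell to 3912 ± 246 on co-culture. Fzd8 rose on co-culture by 0.42 ± 0.05 on the log2 scale (limma, adjusted p = 4.9e-07), from 1296 ± 38.2 to 1745 ± 167 counts, farther above its young level of 944 ± 43.5. Fzd3 fell from 204 ± 17.9 to 151 ± 19.7 counts (log2 fold change -0.44 ± 0.09, limma, adjusted p = 0.00034), near its young level of 136 ± 10.1. With chromosome medians removed, Fzd3 in rejuvenated old MSCs was called higher than in young MSCs (log2 fold change 0.30, limma, adjusted p = 0.0027). The scarce Fzd6 was at 22.5 ± 5.09 counts in old MSCs and lower, at 12.0 ± 5.41, after co-culture, with a log2 fold change of -0.93 ± 0.25 (limma, adjusted p = 0.0051) and overlapping libraries. Fzd9 and Fzd10 were under the filter, with at most 15.2 and 4.26 counts.

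The canonical coreceptors Lrp5 and Lrp6 differed with age in opposite directions. Lrp6 was higher in young (8808 ± 135) than in old MSCs (4241 ± 99.8), while Lrp5 was lower in young (1594 ± 89.3) than in old MSCs (3528 ± 112), and neither was called on co-culture (limma, adjusted p = 0.18 and 0.51). Ryk, a receptor with an inactive kinase domain, held the largest share of the coreceptor level per kb in all 3 groups, 55.8% in young MSCs, 47.5% in old MSCs and 54.0% in rejuvenated old MSCs. It was the coreceptor that rose on co-culture, by 0.15 ± 0.03 on the log2 scale (limma, adjusted p = 0.0001), with rejuvenated old MSCs (4346 to 4716) above every old library (3846 to 4168).

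The intracellular genes and nuclear factors included the feedback targets of the canonical branch. Axin2, a scaffold of the complex that degrades beta-catenin and a widely used readout of canonical signalling, had 296, 345 and 377 counts in young MSCs, 53.2, 64.4 and 71.2 in old MSCs and 24.1, 49.9 and 59.4 in rejuvenated old MSCs. Young MSCs lay above all others, and rejuvenated old MSCs lay lower than old MSCs by a log2 fold change of -0.47 ± 0.15 (limma, adjusted p = 0.019) with overlapping libraries. Tcf7, a TCF/LEF factor and Wnt target, had 98.3, 127 and 150 counts in young MSCs, 8.66, 10.8 and 15.1 in old MSCs and 4.66, 7.64 and 12.4 in rejuvenated old MSCs. Its log2 fold change was 3.32 ± 0.20 in young against old MSCs (limma, adjusted p = 2.7e-13). The lower level of Tcf7 in rejuvenated old MSCs (log2 fold change -0.55 ± 0.20, limma, adjusted p = 0.030) was not called with edgeR or DESeq2. That call was also lost without old replicate 3 or 5 or rejuvenated old replicate 3 or 5 (log2 fold changes between -0.49 and -0.44). Further losses came with the old and rejuvenated old libraries fitted alone, a pseudocount of 10 and no filter on low values (limma, adjusted p = 0.077, 0.064 and 0.061). Lef1, its relative, had 78.7, 87.4 and 111 counts in young MSCs, 5.39, 11.6 and 17.7 in old MSCs and 2.90, 7.10 and 11.3 in rejuvenated old MSCs. Young MSCs were again apart, and the log2 fold change of -0.64 ± 0.28 on co-culture was not called (limma, adjusted p = 0.069). It was called with DESeq2 (log2 fold change -0.74) and without old replicate 3 or 5 or rejuvenated old replicate 2 (between -0.81 and -0.74).

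The naked cuticle genes ran the other way with age. Nkd1 and Nkd2, which bind Dishevelled and act as inducible inhibitors, were both lower in young MSCs. Nkd2 had 5 reads in all young libraries together and 14169 in the old ones. Scaled for depth, the ratio of these pooled reads was 2695 (95% counting interval 1154 to 8300). Old and rejuvenated old MSCs were close, at 2357 ± 119 and 2391 ± 307 counts (limma, log2 fold change 0.01 ± 0.24). Nkd1 had 11.2, 13.5 and 16.5 counts in young MSCs, 87.3, 113 and 145 in old MSCs and 106, 157 and 205 in rejuvenated old MSCs, and its rise of 0.46 ± 0.16 on the log2 scale on co-culture (limma, adjusted p = 0.022) was lost without old replicate 3 or 4 or rejuvenated old replicate 4 or 6, at log2 fold changes between 0.37 and 0.42. The feedback genes fixed for description thus did not move as a group between young and old MSCs. Axin2, Tcf7, Lef1 and Lgr5 were higher in young MSCs, Nkd1, Nkd2 and Notum were lower, and Znrf3 and Rnf43 were not called.

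Among the core components, Ctnnb1, which encodes beta-catenin, was higher in young (21058 ± 475) than in old MSCs (12556 ± 246). It lay at 11935 ± 587 in rejuvenated old MSCs, a difference from old MSCs that was not called (limma, adjusted p = 0.059). That difference was called without rejuvenated old replicate 1, 2 or 4 (log2 fold changes between -0.09 and -0.08). DESeq2 (adjusted p = 0.024) and equal totals (limma, adjusted p = 0.020) gave the call too. Axin1 was also higher in young MSCs (2774 ± 71.6 against 1731 ± 62.3), and Apc, another part of the degradation complex, was lower (log2 fold change -0.30 ± 0.05), a call lost with chromosome medians removed (log2 fold change -0.065, limma, adjusted p = 0.22). On co-culture Apc and Gsk3b were lower by log2 fold changes of -0.19 ± 0.05 and -0.18 ± 0.03 (limma, adjusted p = 0.0065 and 7.5e-05). Of the TCF/LEF factors, Tcf7l1, known mainly as a repressor, gave 61.0% of the level per kb in young MSCs, 78.3% in old MSCs and 78.9% in rejuvenated old MSCs. It lay at 991 ± 58.8 in young MSCs, 2485 ± 129 in old MSCs and 2553 ± 77.0 in rejuvenated old MSCs. Tcf7l2 was lower in young than in old MSCs by a log2 fold change of -0.70 ± 0.05, and neither Tcf7l1 nor Tcf7l2 was called on co-culture (limma, adjusted p = 0.45 and 0.88).

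Whole chromosomes shifted between young and old MSCs, and this bears on some of these genes. Relative to the autosomes together, the median log2 fold change (young minus old) was -0.66 over the genes of chromosome 1, 0.64 on chromosome 7, -0.43 on chromosome 12 and -0.72 on chromosome 16. Of the tested Wnt genes, 6 lie on these chromosomes. With each chromosome's median removed from every library, Fzd7 turned from -0.50 to 0.19, Gsk3b, the kinase that marks beta-catenin for degradation, from -0.56 to 0.19, and Fzd4 from 0.33 to -0.27. The higher level of Wnt11 in young MSCs went from 1.01 to 0.41 and was no longer called (limma, adjusted p = 0.19). Fzd5 went from -1.55 to -0.86 and Dkk3 from -2.05 to -2.65, both still called. Whether a gene differed by itself or with its chromosome cannot be told apart for Fzd4, Fzd7, Gsk3b and Wnt11, nor for Apc on chromosome 18, whose call was lost in the same way. Over the 42 genes on the other chromosomes, 12 were higher and 28 lower in young MSCs, beside 41.6% and 44.1% of all genes. Their median log2 fold change was -0.68.

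**Figure D4:**
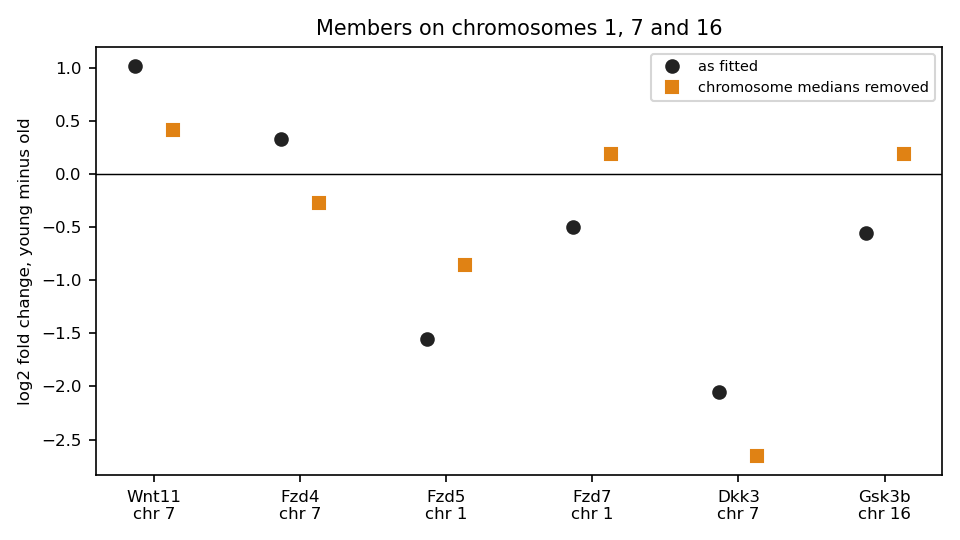
Log2 fold change (young minus old) of the 6 tested Wnt genes on chromosomes 1, 7 and 16, as fitted (circles) and after each chromosome's median was removed from every library (squares). Fzd4, Fzd7 and Gsk3b change sign, while Fzd5 and Dkk3 stay below 0 at -0.86 and -2.65.

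Promoter windows were searched for the core letters bound by TCF/LEF factors, to set the letters beside feedback genes that differed in opposite directions. The windows were those of RefSeq (build GRCm38.p6), with 250 bases before and 50 after each annotated start. The core was CTTTGAT, or ATCAAAG on the other strand, and 3.73% of all 32851 windows held it. A window was found for 43 of the 66 genes, and 2 of their 53 windows held the core. These belonged to Wnt5b and Wnt11 and are shown from base 250 before the start to the last base before it, with the core in capitals. The Wnt5b stretch (chr6:119449387-119449636, minus strand) has the core 71 bases before the start, and the Wnt11 stretch (chr7:98834862-98835111, plus strand) has it 51 bases before.
Wnt5b: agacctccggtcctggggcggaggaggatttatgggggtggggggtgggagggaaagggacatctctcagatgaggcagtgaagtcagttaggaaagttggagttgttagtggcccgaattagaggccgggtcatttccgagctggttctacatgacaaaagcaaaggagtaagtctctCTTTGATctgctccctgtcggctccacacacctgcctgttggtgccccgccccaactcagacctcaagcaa
Wnt11: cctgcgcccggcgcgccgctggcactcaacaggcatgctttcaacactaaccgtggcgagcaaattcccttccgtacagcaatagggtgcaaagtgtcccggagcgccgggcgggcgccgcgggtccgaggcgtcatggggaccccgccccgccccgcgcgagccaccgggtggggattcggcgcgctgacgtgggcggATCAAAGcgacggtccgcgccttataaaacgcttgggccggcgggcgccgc
Neither gene was among the strongly changed ones, as Wnt5b lay at the threshold and the Wnt11 call was lost once the median of chromosome 7 was removed. The letters were not in the single windows of Axin2, Nkd1, Nkd2 and Dkk2, the 4 windows of Lef1 or the 2 of Tcf7. A match describes letters and not a bound site, and a missing match says only that the letters are not in these windows.

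Other genes of the pathway were followed from a separate list of 125 names. Of these, 110 were tested, 38 were higher and 60 lower in young than in old MSCs, beside 41.6% and 44.1% of all genes, with a median log2 fold change of -0.16. In rejuvenated old against old MSCs, 21 were higher and 37 lower, beside 21% and 20.6% of all genes, with a median of -0.07. Cthrc1, a secreted protein that favours Wnt5a and Ror2 signalling, was higher in young MSCs (33.3 ± 5.39 against 0.807 ± 0.7004), and so was Tnfrsf19 (725 ± 25.5 against 43.8 ± 10.5), a receptor induced by Wnt signals. Dlx5, a homeobox factor of osteoblasts, was nearly absent from young MSCs at 0.506 ± 0.555 and lay at 1022 ± 70.3 in old MSCs. Tnfrsf11b, the gene of osteoprotegerin, was lower in young (69.4 ± 10.96) than in old MSCs (1107 ± 91.3) and rose further to 2330 ± 329 on co-culture (log2 fold change 1.07 ± 0.10, limma, adjusted p = 1.2e-08). Myc, a growth regulator and known Wnt target, lay at 3248 ± 180 in young MSCs, 1095 ± 130 in old MSCs and 2278 ± 166 in rejuvenated old MSCs (log2 fold change on co-culture 1.06 ± 0.06, limma, adjusted p = 8.6e-12). Of this list, Edn1 rose most on co-culture (log2 fold change 1.28 ± 0.17). Lgr6 (-1.58 ± 0.22), Cxxc4 (-1.24 ± 0.27) and Tnfrsf19 (-1.06 ± 0.18) fell most. Tnfrsf19 reached 21.2 ± 8.27 counts in rejuvenated old MSCs, farther below its young level. Of the 21 target genes of this list that were tested, 6 were higher and 8 lower on co-culture. Among the feedback genes, Lgr5 and Nkd1 were higher and Axin2 and Tcf7 lower in the main fit. Lef1, Nkd2, Notum, Znrf3 and Rnf43 were not called there.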

How the data were processed

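RNA-seq was done on 18 MSC cultures. Per the labels and the study's methods, total RNA was extracted with an miRNeasy kit and DNase, and libraries were made with a stranded mRNA kit. The submitters' processing notes name HISAT2, the mouse build mm10, StringTie, featureCounts and DESeq2. Versions, annotation and the strand setting of the counting are not given in the sources used here. The deposited signal values are gene counts that the authors divided by size factors, called normalised counts here. Within each library, 100% of values were whole multiples of the value of 1 read (tolerance 0.01 reads), so reads and depth were recovered. The table held no other sample columns.

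Values were tested as log2(normalised count + 1) with limma 3.58.1 in R 4.3.3 (lmFit, eBayes with trend) in 1 fit of all 18 libraries, on 14353 genes that averaged 10 or more. Adjustment was by Benjamini-Hochberg over all of them, with calls under 0.05. Fold changes are on this scale, which understates those of genes near 0. edgeR 4.0.16 and DESeq2 1.42.0 on the recovered reads, pseudocounts, filters, scalings, the removal of chromosome medians, 2 groups fitted alone, leave-outs and a replicate block were alternatives. On simulated data, limma recovered 85% of changes of 0.5 and 100% of changes of 1 on the log2 scale, with 3 false calls. These data held 14353 genes at their means over all 18 libraries, with 200 changed in the rejuvenated old group. All genes had the same dispersion, and means were otherwise equal in the 3 groups. Genes near 0 in 1 group alone, such as Sfrp1 in young MSCs, were thus not modelled. Nor were differences in spread between genes, or the larger share called here on co-culture (21% higher and 20.6% lower). The recovery and the false calls of the simulation need not hold for these data. Counting intervals (95%) cover counting error only. Levels between genes are per kb of merged exons. Genes set for single description were the 5 called ones that changed most in each direction in each comparison. The most abundant gene of each role and the feedback genes were added. Some of these are given with full values (lowest, median, highest) and others by a mean, range, median or fold change. The rest are given by counts, ranges, means or fold changes. The Wnt genes and the marker and pathway lists were chosen with earlier results of these data known.

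The replicate numbers did not pair the samples, since correlations between the deviations of same-numbered libraries were between -0.152 and 0.0736. Figures were drawn with matplotlib 3.10.9.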

Additional observations from a re-analysis of the deposited data

Results flagged for a closer look

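In 10 of 144 sets of 6 libraries (a Wnt gene in a group), 1 library lay apart from the other 5 by more than Dixon's 95% critical value for 6 samples. For independent sets from a normal distribution, chance flags about 1 in 20, and 10 of 144 is 6.94%. These sets share libraries and some hold few reads, so that rate need not hold here. Young replicate 6 was the library apart for Sfrp1 (46.3 normalised counts against 2.18 to 7.82) and Wif1 (4.12 against 0 to 0.996), both abundant in old MSCs. Rejuvenated old replicate 1 was apart for Dkk2 (94.7 against 21.9 to 31.7), which was abundant in young MSCs. Old replicate 3 was apart for Fzd6 (32.3 against 18.7 to 23.1) and Ror1 (20.5 against 32.7 to 38.1). Old replicate 5 was apart for Lgr4 (2045 against 1681 to 1817) and old replicate 2 for Rspo3 (54.2 against 27.9 to 33.6). The remaining 3 were at very low counts in young MSCs, Notum in replicate 2 (18.9 against 5.44 to 10.1), Nkd2 in replicate 2 (2.99 against 0 to 1.09) and Wnt2 in replicate 1 (2.18 against 0). The causes were not tested.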

How the results depend on the processing

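In young against old MSCs, the count of higher Wnt genes was 14 and fell to 8 under a stricter filter (mean of 50 or more), which leaves 37 Wnt genes. All other counts of calls stayed within 1.5 times. The median log2 fold change of -0.63 (young minus old) was -0.52 with a pseudocount of 10, -0.91 with the stricter filter, -0.56 with equal totals, -0.60 with equal 75th percentiles, -0.66 with chromosome medians removed, -0.68 with edgeR and -0.69 with DESeq2, and from -0.72 to -0.58 without 1 library. The median of rejuvenated old minus old MSCs was -0.038 with the stricter filter (from -0.11 to -0.08 without 1 library). That of rejuvenated old minus young MSCs was 0.72 with the stricter filter, 0.36 with equal totals and 0.40 with chromosome medians removed, and from 0.44 to 0.50 without 1 library. The cause was not tested beyond what each setting does by construction.

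Over single genes, 4308 of 4428 alternative values kept the side of the threshold and, where called, the direction. Of the others, 66 lost a call, 46 gained one and 8 reversed the sign of a called result. The changes fell on 33 of 144 results. A change of sign in an uncalled result was not counted. Wnt11 in rejuvenated old minus young MSCs, for example, went from -0.36 to 0.19 with chromosome medians removed. All 8 reversals came with chromosome medians removed. In young minus old MSCs, Fzd4 became -0.27, Fzd7 0.19 and Gsk3b 0.19. In rejuvenated old minus young MSCs, Fzd4 became 0.044, Fzd7 -0.17, Gsk3b -0.37, Apc -0.079 and Ryk 0.087. Under the replicate block, whose numbers do not pair the samples, 14 Wnt genes were higher and 31 lower in young against old MSCs, and 10 and 14 in rejuvenated old against old MSCs. The block ended 2 calls, Wnt5b in young against old and Apc in rejuvenated old against young MSCs. In rejuvenated old against old MSCs, Ror1 lost its call without old replicate 1, 2, 5 or 6 or rejuvenated old replicate 4 or 5, Tcf7 without old replicate 3 or 5 or rejuvenated old replicate 3 or 5, and Nkd1 without old replicate 3 or 4 or rejuvenated old replicate 4 or 6. Calls were gained without 1 library for Lef1, Ctnnb1, Lgr4, Znrf3, Wnt2, Wnt11 and Sfrp1 in the same comparison, for Rnf43 in young against old MSCs, and for Lgr5, Notum, Fzd3 and Wnt2b in rejuvenated old against young MSCs. In old MSCs, Lgr5, Lef1 and Rnf43 had at most 15.4, 17.7 and 26.9 normalised counts, where counting error is large.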
